A study of Mus musculus with 18 samples.

Results

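The genes described here are 39 cell cycle genes chosen by name: 17 of DNA replication and S phase, 19 of G2 and mitosis, and the 3 D cyclins, beside the 14282 genes tested. Each is represented by the probe set with the highest mean over all arrays among those annotated to that gene symbol alone. Of the 39 genes 38 had such a probe set and passed the filter on dim probe sets; for Ccnb1, cyclin B1, no probe set was listed with 1 gene, and it was not analysed here. RNA came from embryoid bodies, floating aggregates in which embryonic stem cells start to differentiate, made from the mouse A2lox line of strain 129P2 with an inducible Flag-tagged Msgn1. Msgn1 encodes a bHLH factor that acts in presomitic mesoderm. The 6 groups of 3 arrays were embryoid bodies that got doxycycline on day 2 and were collected 12, 24 or 48 h later, called induced, and embryoid bodies of the same line and times without doxycycline, called uninduced. All groups carried the cassette, so no group shows the effect of doxycycline without it, and the sources used here describe 1 line and do not say whether it is 1 clone. The stem cells had been grown on mitomycin-treated mouse embryonic fibroblasts. The labels call the arrays of a group biological replicates without saying that the cultures were separate, so the tests measure the spread between these samples.

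Values are microarray signals on a linear scale. A change is how far the means of 2 groups lie apart in log2(signal + 32), with its standard error (SE), a fold is that difference unlogged, and a gene is said to have risen or fallen where limma's p-value, adjusted over all genes, was under 0.05. Every array had been scaled to the same trimmed mean of 150, so each value is relative to the RNA on its array. The median signal of an array was 18.7 to 22.1, arrays of a group had correlations of 0.99 to 0.993, and no pair of arrays held identical values. The ratio of 3' to 5' signal for Actb ran from 1.54 to 2.16 and for Gapdh from 0.855 to 0.924 over all arrays; at 48 h the Gapdh ratio was 0.869 to 0.878 on uninduced and 0.898 to 0.914 on induced arrays, and the part of this in the results was not tested. Msgn1 itself, as a check of the labels, had a signal of 44.5 to 76.8 on the induced arrays and 4.69 to 25.2 on the uninduced ones, with no overlap. In whole embryoid bodies fewer cells of a type and less RNA per cell cannot be told apart.

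A dividing cell copies its DNA in S phase and separates the copies in mitosis. The D cyclins act earlier, in G1: with Cdk4 and Cdk6 they phosphorylate the retinoblastoma protein, which frees E2F factors to switch on the S phase genes. A second wave of genes, among them Cdk1 and Top2a, is switched on in G2 through CHR elements (cell cycle homology regions) and CCAAT boxes read by the MuvB complexes and NF-Y. Embryonic stem cells are known for a short G1 phase, with cyclin E present through the cycle and little cyclin D, and they lengthen G1 as they differentiate.

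Some of the members' promoters hold the motifs of these elements. Printed below are 6 that do, to let the motifs of the S phase genes be set beside those of the G2 and M phase genes. Each is the 250 bases before a start of the gene, in the direction of transcription, from RefSeq's promoters on GRCm38.p6. For Cdc6, whose gene spans chr11:98907709-98923942, that start and the window lie inside the gene. Top2a spans chr11:98992947-99024199, so its start lies inside the gene too and the window overlaps the gene's end. Capitals mark E2F motifs (spelled TTCCCGC or TTGGCGC or TTCGCGC or TTGCCGC), CHR motifs (TTTGAA or TTCGAA) and CCAAT, on either strand. Motifs of these letters can share bases, as E2F motifs on opposite strands do in Mcm6. Cdc6, which loads the replicative helicase, lies at chr11:98907901-98908150 on the plus strand. Mcm6, a helicase subunit, is at chr1:128359706-128359955 on the minus strand. Cdk1, the mitotic kinase, is at chr10:69352913-69353162 on the minus strand. The activator of the anaphase promoting complex, Cdc20, is at chr4:118437344-118437593 on the minus strand. Top2a, which untangles sister chromatids, is at chr11:99024190-99024439 on the minus strand, and Ube2c, the complex's ubiquitin-conjugating enzyme, is at chr2:164769679-164769928 on the plus strand.
Cdc6: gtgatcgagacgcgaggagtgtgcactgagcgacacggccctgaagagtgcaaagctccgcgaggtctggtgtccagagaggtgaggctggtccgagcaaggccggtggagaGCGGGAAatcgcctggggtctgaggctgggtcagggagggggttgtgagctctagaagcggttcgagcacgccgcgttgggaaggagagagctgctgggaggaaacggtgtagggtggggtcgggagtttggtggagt
Mcm6: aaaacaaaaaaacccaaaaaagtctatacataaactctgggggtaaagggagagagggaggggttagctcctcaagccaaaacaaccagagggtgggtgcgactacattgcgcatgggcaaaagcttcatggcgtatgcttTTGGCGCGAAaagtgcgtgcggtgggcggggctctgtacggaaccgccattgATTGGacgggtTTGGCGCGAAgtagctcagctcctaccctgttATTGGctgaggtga
Cdk1: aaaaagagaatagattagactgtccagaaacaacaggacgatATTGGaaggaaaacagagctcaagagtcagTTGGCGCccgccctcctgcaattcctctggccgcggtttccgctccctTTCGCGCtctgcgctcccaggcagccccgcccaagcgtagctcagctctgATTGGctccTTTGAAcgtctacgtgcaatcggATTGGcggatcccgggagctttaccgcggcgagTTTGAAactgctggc
Cdc20: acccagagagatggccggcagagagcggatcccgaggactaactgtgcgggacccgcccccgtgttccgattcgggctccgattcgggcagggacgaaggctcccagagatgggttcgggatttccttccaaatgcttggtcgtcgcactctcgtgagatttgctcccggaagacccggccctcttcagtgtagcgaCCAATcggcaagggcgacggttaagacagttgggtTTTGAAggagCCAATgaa
Top2a: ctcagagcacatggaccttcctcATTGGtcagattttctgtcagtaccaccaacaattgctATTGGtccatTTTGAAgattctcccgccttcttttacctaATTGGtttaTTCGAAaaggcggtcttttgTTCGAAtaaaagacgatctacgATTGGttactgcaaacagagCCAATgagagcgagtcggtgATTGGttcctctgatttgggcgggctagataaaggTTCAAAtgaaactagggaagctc
Ube2c: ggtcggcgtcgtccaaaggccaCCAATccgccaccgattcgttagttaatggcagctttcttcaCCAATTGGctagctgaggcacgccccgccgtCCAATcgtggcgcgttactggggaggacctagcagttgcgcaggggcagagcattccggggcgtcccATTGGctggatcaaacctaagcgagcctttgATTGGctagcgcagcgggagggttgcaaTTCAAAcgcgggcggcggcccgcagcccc

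Positions are those of a motif's first printed base, counted back from the start that follows the window. Cdc6 held an E2F motif at -138 and neither of the other motifs. Mcm6 held 4 E2F motifs, at -109, -106, -46 and -43, in overlapping pairs. Cdk1 held motifs of all 3 kinds, with E2F at -178 and -130 and CHR at -71 and -15. Top2a held 4 CHR motifs and 6 CCAAT, and Ube2c 1 CHR motif, at -29, and 6 CCAAT. In Cdc20 a CHR motif stood at -18 and CCAAT at -53 and -8. A promoter was found for 30 of the 39 members (32 promoters). Of the 15 promoters of 14 S phase genes, 7 (46.7%) held an E2F motif, 2 (13.3%) a CHR motif and 10 (66.7%) CCAAT. Of the 15 promoters of G2 and M phase genes, 2 (13.3%) held an E2F motif, 7 (46.7%) a CHR motif and 14 (93.3%) CCAAT, all but that of Birc5. Among all 32851 promoters in the reference the shares were 7.89%, 17.1% and 33.8%. The letters of none of the 3 motifs were found in the windows of Ccne1, Cdt1, Tyms, Ung and Birc5, or in 1 of the 2 windows of Ccnd3. A match of letters is a description of the sequence and was not set against binding data.

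The members that varied most over the study were Ccnd2, Ccne1, Ccnd3, Cenpe and Ccne2, while most of the others moved within a narrow range. Across all 18 arrays the highest signal of a gene was under 2-fold its lowest for 15 of 17 S phase genes, 17 of 18 G2 and M phase genes and 1 of 3 D cyclins. The median of that ratio was 1.37 for S phase genes, 1.41 for G2 and M phase genes and 2.75 for the D cyclins. Called in none of the 12 comparisons, on the probe set used, were 2 of 17 S phase genes (Rrm1 and Slbp), 10 of 18 G2 and M phase genes (Aurka, Aurkb, Birc5, Bub1b, Ccna2, Ccnb2, Cdk1, Kif23, Top2a and Tpx2) and Ccnd1. Of these, Ccna2 had a second probe set, 1417911_at, that was called lower from 12 h to 48 h in induced arrays (-0.18, adjusted p = 0.0388). How many of all genes were called in none of the 12 comparisons was not counted, so the counts above only describe the members. Tyms, thymidylate synthase, was read by a dim probe set (mean signal 48.7). As a description of the classes, the mean deviation of the S phase genes from their own averages was 0.0695 ± 0.0224 (SD, n = 3) in uninduced and 0.102 ± 0.0572 (SD, n = 3) in induced arrays at 12 h, and -0.102 ± 0.0608 (SD, n = 3) and -0.113 ± 0.0801 (SD, n = 3) at 48 h, in log2 units. For the G2 and M phase genes the group means lay between -0.0480 and 0.0514. For the D cyclins the mean was -0.275 uninduced and -0.284 induced at 12 h, -0.279 uninduced and -0.0640 induced at 24 h, and 0.155 uninduced and 0.747 induced at 48 h. The mean of the S phase genes less that of the G2 and M phase genes went from 0.0554 ± 0.0143 (SD, n = 3) at 12 h to -0.123 ± 0.104 (SD, n = 3) at 48 h without doxycycline and from 0.101 ± 0.0568 (SD, n = 3) to -0.0736 ± 0.104 (SD, n = 3) with it. The 48 h arrays were uneven: the 3 induced ones stood at -0.194, -0.0173 and -0.00979, and the 3 uninduced ones at -0.0217, -0.230 and -0.116. Without induced 48 h replicate 1 the induced mean of this difference was -0.0135 and that of the S phase genes -0.0670, and without uninduced 48 h replicate 2 the uninduced mean of the difference was -0.0689. On these 2 arrays Ccne1, 1 of the 17 S phase genes, read 337.8 and 473.4, against 1014 to 1236 on the other 48 h arrays. The class means without Ccne1 were not computed.

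**Figure D1:**
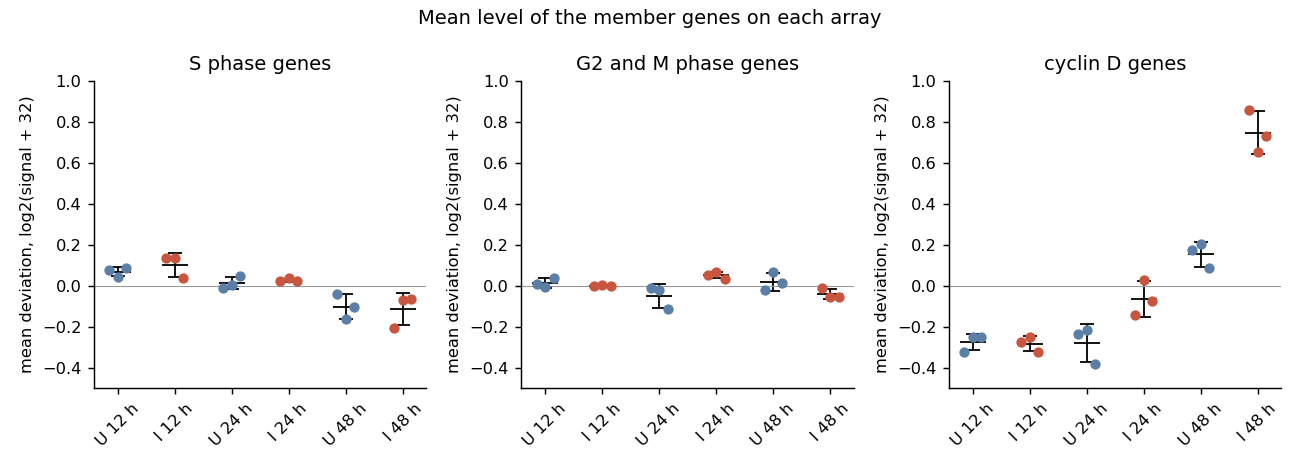
Mean deviation of S phase, G2 and M phase and cyclin D genes from each gene's mean over the 18 arrays, in log2(signal + 32), for each array (points) in each group (U uninduced, blue; I induced, red; hours of collection), with group mean and SD in black. The cyclin D panel climbs at 48 h to 0.651 to 0.859 on the induced arrays, the S phase panel slopes down from 12 h to 48 h, and the G2 and M phase panel stays near 0.

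Cyclin D2, Ccnd2 (probe set 1434745_at), was the member with the greatest change. Uninduced signal was 195.3, 212.5 and 200.8 at 12 h, 193.3, 191.0 and 214.1 at 24 h, and 494.2, 599.4 and 396.3 at 48 h. Induced signal was 190.7, 187.9 and 174.8 at 12 h, 224.7, 281.1 and 275.1 at 24 h, and 1211, 917.3 and 1085 at 48 h. Thus Ccnd2 climbed late in both courses, and every induced array lay below every uninduced one at 12 h (-0.12 ± 0.117 SE, adjusted p = 0.792) and above every one at 24 h and 48 h. With Msgn1 induction at 48 h Ccnd2 rose 2.10-fold (log2 1.07 ± 0.117 SE, adjusted p = 8.51e-07). Without doxycycline it rose 2.22-fold from 12 h to 48 h (log2 1.15 ± 0.117 SE, adjusted p = 8.96e-08), and with doxycycline 5.07-fold (log2 2.34 ± 0.117 SE, adjusted p = 6.93e-13). At 24 h the induction effect was 0.33 ± 0.117 (SE) and did not pass (adjusted p = 0.135), while with the mean of its probe sets it was 0.40 ± 0.0960 (SE) and passed (adjusted p = 0.0235). The effect at 48 h exceeded that at 24 h by 0.74 ± 0.166 (SE, adjusted p = 0.0133) and that at 12 h by 1.19 ± 0.166 (SE, adjusted p = 7.80e-05). All 7 probe sets of Ccnd2 that passed the filter were higher with induction at 48 h. The difference of effect between 48 h and 24 h was above 0 on all 7 but called on only 2 of them. That between 48 h and 12 h was called on 6 of the 7.

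Cyclin D3, Ccnd3 (1415907_at), followed with a smaller change. Its signal was 297.8, 341.6 and 331.6 in uninduced and 386.8, 368.0 and 331.3 in induced arrays at 12 h. At 24 h it was 350.0, 328.0 and 241.2 uninduced and 397.3, 430.8 and 358.2 induced. At 48 h uninduced arrays read 387.9, 387.0 and 391.4 and induced arrays 663.8, 525.6 and 504.5. The groups overlapped at 12 h and stood apart at 24 h and 48 h, with induced arrays higher. Ccnd3 rose with induction at 48 h by 0.49 ± 0.113 (log2, SE, 1.41-fold, adjusted p = 0.00433) and over the induced course from 12 h to 48 h by 0.59 ± 0.113 (log2, SE, adjusted p = 2.03e-04). When the mean of its probe sets stood for the gene, with a second probe set at a mean signal of 17.7, the adjusted p at 48 h was 0.225. Whether the induction effect on Ccnd3 differed between 48 h and 12 h did not pass (0.35 ± 0.160 SE, adjusted p = 0.256).

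Ccnd1, cyclin D1 (1417420_at), passed no test. Uninduced signal was 1141, 1081 and 1169 at 12 h, 1191, 1326 and 1117 at 24 h, and 1087, 955.5 and 1097 at 48 h. Induced signal was 1004, 1122 and 1135 at 12 h, 1121, 1221 and 1192 at 24 h, and 1151, 1222 and 1273 at 48 h. Induced arrays lay above uninduced ones at 48 h and overlapped them before. The change with induction at 48 h was 0.21 ± 0.0753 (SE, adjusted p = 0.0732). Its 2 other probe sets, 1417419_at and 1448698_at, were called higher at 48 h than at 12 h in induced arrays, by 0.45 and 0.31 (log2), where the probe set used changed by 0.16 ± 0.0753 (SE). In uninduced arrays 1417419_at was called higher over those hours too, by 0.24 (adjusted p = 0.0261), and the probe set used changed by -0.11 ± 0.0753 (SE).

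**Figure D2:**
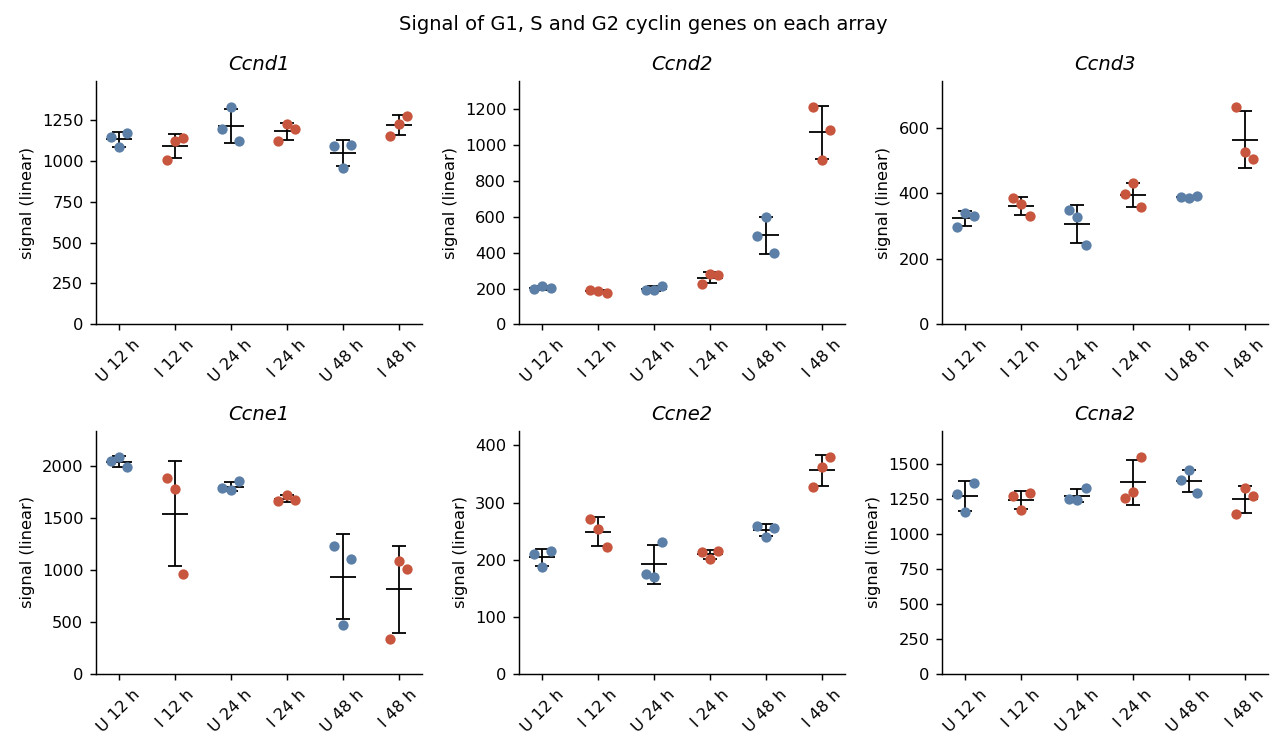
Linear signal of 6 cyclin genes on each array (points; U uninduced, blue; I induced, red; hours of collection), with group mean and SD in black and axes from 0. Ccnd2 climbs to 917 to 1211 on induced arrays at 48 h, Ccnd3 and Ccne2 are highest in that group, Ccne1 is low and scattered at 48 h, and Ccna2 keeps overlapping groups.

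The E cyclins bind Cdk2 at the start of S phase, and the 2 genes moved in opposite directions. Ccne2 (1422535_at) read 209.7, 187.3 and 215.1 in uninduced and 271.3, 253.9 and 222.1 in induced arrays at 12 h. At 24 h it read 175.1, 169.2 and 231.1 uninduced and 213.3, 201.1 and 214.7 induced. At 48 h the values were 259.8, 240.6 and 255.1 uninduced and 326.4, 362.5 and 380.0 induced. All 3 induced arrays at 48 h were thus above every other array of the study. Ccne2 rose with induction at 48 h by 0.45 ± 0.0992 (log2, SE, 1.37-fold, adjusted p = 0.00317), and from 12 h to 48 h by 0.47 ± 0.0992 (SE, adjusted p = 5.91e-04) in induced arrays. Over the same hours in uninduced arrays it rose by 0.27 ± 0.0992 (SE, adjusted p = 0.0417). That last call was lost without uninduced 12 h replicate 1 or 2 or any uninduced 48 h replicate (adjusted p up to 0.161).

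Ccne1 (1441910_x_at, a probe set that may match other transcripts) went down instead. Uninduced signal was 2049, 2089 and 1992 at 12 h, 1785, 1770 and 1852 at 24 h, and 1236, 473.4 and 1106 at 48 h. Induced signal was 1886, 1782 and 960.8 at 12 h, 1662, 1723 and 1678 at 24 h, and 337.8, 1090 and 1014 at 48 h. The 12 h and 48 h arrays stood apart without doxycycline and overlapped with it, and 1 array each of 3 groups was far below its replicates. Ccne1 fell by 1.20 ± 0.322 (log2, SE, 2.30-fold, adjusted p = 0.00570) from 12 h to 48 h in uninduced arrays and by 1.00 ± 0.322 (log2, SE, adjusted p = 0.0159) in induced arrays. The first call was lost without uninduced 48 h replicate 2 (adjusted p = 0.0605), the second without induced 12 h replicate 1 or 2 or induced 48 h replicate 1 (adjusted p up to 0.172). Its other probe set, 1416492_at, was even between replicates: 1103, 1193 and 1173 in uninduced arrays at 12 h against 665.5, 648.3 and 591.4 at 48 h, and 919.8, 1002 and 886.8 in induced arrays at 12 h against 561.4, 667.8 and 628.6 at 48 h. On that probe set the falls were 0.83 and 0.57 (log2), both called.

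At 12 h induction changed none of the 38 members by limma's adjusted p, and 5 had an unadjusted p under 0.05 (4 S phase, 1 G2 and M phase). Of all genes tested 1.08% were called there. At 24 h, too, none was called, against 3.91% of all genes, and 7 had an unadjusted p under 0.05 (3 S phase, 2 G2 and M phase, 2 D cyclins). The share of all genes with an unadjusted p under 0.05 was not counted. Counts at that threshold, here and further below, therefore only describe the genes listed. The fitted change of the G2 and M phase genes at 24 h was above 0 for 17 of 18, with a median of 0.09 beside 0.01 over all genes. Their mean deviation on uninduced 24 h replicate 3 was -0.115, apart from -0.00930 and -0.0197 on its replicates, and without that array the change was above 0 for 13 of 18, with a median of 0.0506. Replicate numbers may pair the arrays at 24 h: with the replicate number as a block within each time, 3 members were called, all higher, namely Ccnd3 (0.35 ± 0.0919 SE, adjusted p = 0.0411), the kinesin of cytokinesis Kif20a (0.31 ± 0.0703 SE, adjusted p = 0.0202) and Mcm6 (0.20 ± 0.0505 SE, adjusted p = 0.0374). Without induced 24 h replicate 3 and with no block, Kif20a (adjusted p = 0.00596) and Mcm6 (adjusted p = 0.0433) were called.

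By 48 h induction had changed 5 of 38 members, beside 12.4% of all genes. Those that rose were Ccnd2, Ccnd3, Ccne2 and Rrm2, against a background of 6.85% of genes higher. Mcm2 alone fell, where 5.56% of genes were lower. Rrm2, the regulated subunit of ribonucleotide reductase (1434437_x_at), read 3640, 3454 and 3291 in uninduced and 4075, 4010 and 4139 in induced arrays. Earlier it had read 3748, 3873 and 3946 uninduced and 4236, 4252 and 4184 induced at 12 h, and 3549, 3670 and 3501 uninduced and 3721, 4051 and 3851 induced at 24 h. On this probe set, which may match other transcripts, induced arrays were the higher ones at each time. At 48 h Rrm2 rose by 0.23 ± 0.0514 (log2, SE, adjusted p = 0.00301). With the mean of its 3 probe sets the adjusted p was 0.0769. At 48 h 1448226_at changed by 0.16 (adjusted p = 0.156) and 1416120_at by 0.09 (adjusted p = 0.790), with overlapping arrays on both. At 12 h the former changed by 0.10 and the latter by -0.12.

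Mcm2, a subunit of the MCM helicase (1434079_s_at), read 2017, 1759 and 1929 in uninduced and 1996, 2180 and 2072 in induced arrays at 12 h. At 24 h it read 1915, 2028 and 2058 uninduced and 1874, 1862 and 2144 induced. At 48 h it read 1764, 1733 and 1848 uninduced and 1511, 1566 and 1475 induced, so that only at the last time were the groups apart, with induced arrays lower. Mcm2 fell with induction at 48 h by 0.23 ± 0.0665 (log2, SE, 1.17-fold, adjusted p = 0.0258), and the effect at 48 h was below that at 12 h by 0.36 ± 0.0940 (SE, adjusted p = 0.0250). The first call was lost without uninduced 48 h replicate 1 or 3 or induced 48 h replicate 1 or 3 (adjusted p up to 0.111). The second was lost without uninduced 12 h replicate 2, induced 12 h replicate 2 or 3, uninduced 48 h replicate 3 or induced 48 h replicate 3 (adjusted p up to 0.0840). The second probe set of Mcm2, 1448777_at, changed by -0.07 with induction at 48 h and was not called, reading 1577, 1580 and 1524 uninduced and 1536, 1563 and 1372 induced. On 1448777_at the difference of effect between 48 h and 12 h was -0.01 (adjusted p = 0.979).

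None of the 18 G2 and M phase genes was called with induction at 48 h, and 2 had an unadjusted p under 0.05, Cenpf and Kif11. Their median change was -0.03, that of the S phase genes -0.01 and that of all genes 0.01. The 95% intervals of 17 of the 18 lay within 0.5 of 0 on the log2 scale, and the exception was Cenpf, a kinetochore protein, whose interval reached -0.62. Cenpf read 881.4, 935.9 and 647.3 uninduced and 657.0, 607.1 and 618.4 induced, which overlap, and its dimmer probe set 1458447_at (mean signal 50.9) was called lower with induction (-0.55, adjusted p = 0.00204). Cdk1 (1448314_at) read 1402, 1461 and 1419 uninduced and 1250, 1409 and 1474 induced at 12 h, 1472, 1360 and 1080 uninduced and 1578, 1446 and 1214 induced at 24 h, and 1318, 1404 and 1428 uninduced and 1299, 1371 and 1370 induced at 48 h. Top2a (1454694_a_at) read 3552, 3248 and 3367 uninduced and 3622, 3483 and 3267 induced at 12 h, 2914, 3061 and 3309 uninduced and 3017, 3280 and 3619 induced at 24 h, and 3167, 3078 and 3034 uninduced and 3252, 3049 and 3068 induced at 48 h. Both genes overlapped between induced and uninduced arrays at every time, with changes at 48 h of -0.04 ± 0.0963 (SE) for Cdk1 and 0.01 ± 0.0662 (SE) for Top2a.

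**Figure D3:**
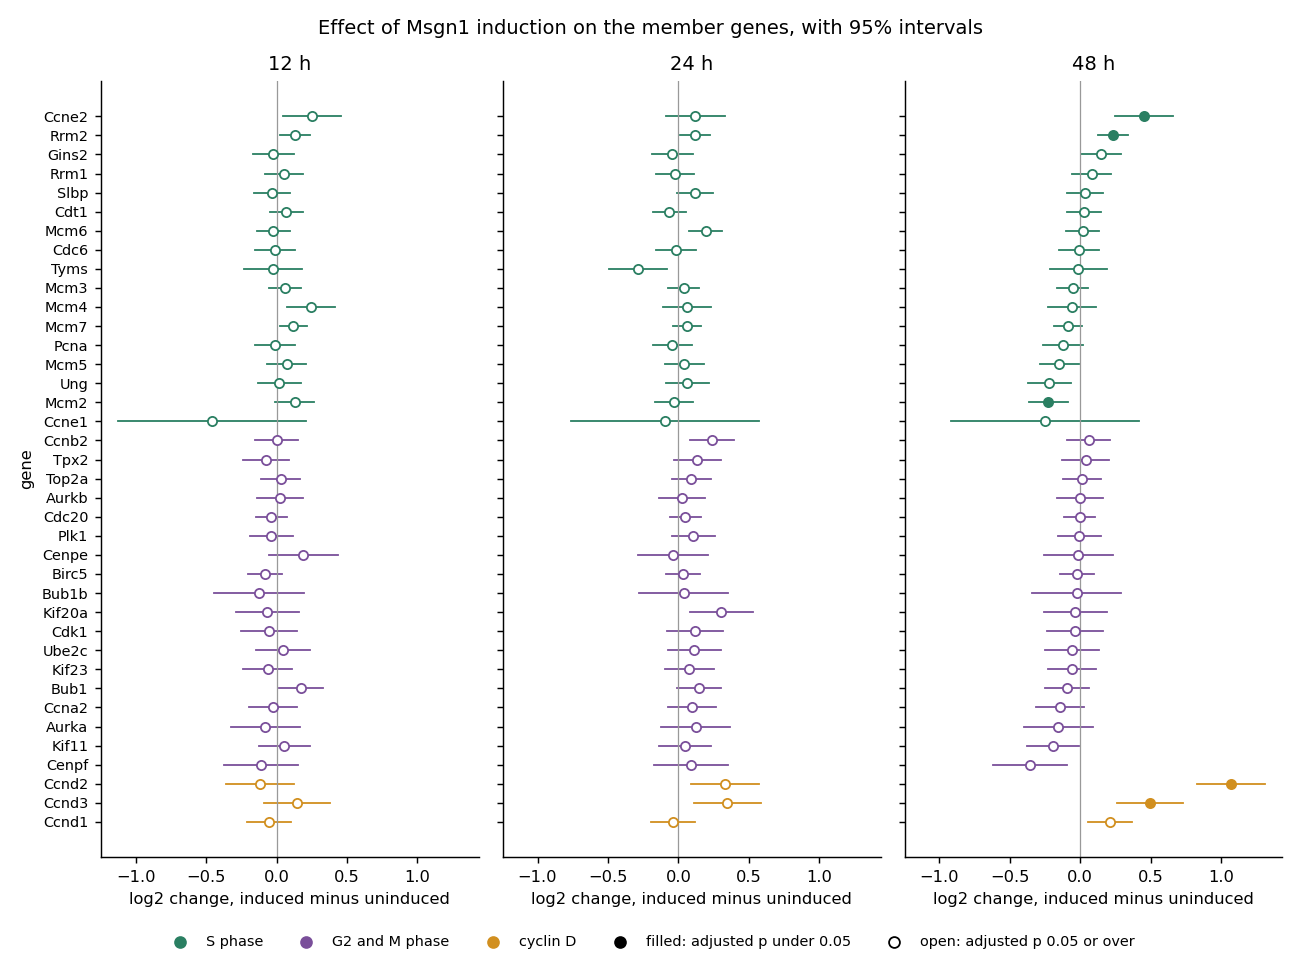
Log2 change with Msgn1 induction (induced minus uninduced) of the 38 members at 12, 24 and 48 h, with 95% intervals; filled points had an adjusted p under 0.05. The filled points are all at 48 h, where Ccnd2 stands at 1.07, Ccnd3, Ccne2 and Rrm2 are above 0, Mcm2 is below 0, and the G2 and M phase genes are all open.

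The difference of the induction effect between times was called for no member between 24 h and 12 h (0.105% of all genes, 4 members at an unadjusted p under 0.05), for Ccnd2 between 48 h and 24 h (3.11% of all genes; 2 members without induced 24 h replicate 3) and for Ccnd2 and Mcm2 between 48 h and 12 h (5.47% of all genes).

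Without doxycycline 7 of 17 S phase genes fell between 12 h and 48 h, 2 rose (Mcm7 and Ccne2) and 8 did not pass, with a median of -0.14 beside 0.01 over all genes. Of 18 G2 and M phase genes none fell and 1 rose (Cenpe), with a median of -0.02. In all, 11 of 38 members were called, where 33.6% of all genes were, 15.0% lower and 18.6% higher. The count of 11 became 6 without uninduced 12 h replicate 3 or uninduced 48 h replicate 2 or 3, and 7 without the intensity trend. Those that fell were the helicase loaders Cdc6 and Cdt1, the sliding clamp Pcna, uracil glycosylase Ung, Gins2 of the replicative helicase, Rrm2 and Ccne1. Ung (1425753_a_at) read 1307, 1110 and 1267 at 12 h, 1027, 1047 and 1100 at 24 h, and 924.2, 815.5 and 831.2 at 48 h. On induced arrays Ung read 1226, 1260 and 1235, then 1134, 1172 and 1020, then 692.6, 769.3 and 729.5. The 3 times did not overlap on the uninduced arrays, and Ung fell by 0.50 ± 0.0736 (log2, SE, adjusted p = 1.40e-05) without and by 0.74 ± 0.0736 (log2, SE, adjusted p = 3.99e-08) with doxycycline. Its change with induction at 48 h was -0.22 ± 0.0736 (SE, adjusted p = 0.0535).

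Cdt1 (1424143_a_at), which loads MCM before replication, read 3908, 3802 and 3734 at 12 h, 3440, 3564 and 3709 at 24 h, and 3153, 2922 and 2991 at 48 h without doxycycline. With doxycycline it read 4272, 3867 and 3888, then 3269, 3359 and 3619, then 3150, 3079 and 3006. Every 48 h array was below every 24 h and 12 h array, and Cdt1 fell by 0.33 ± 0.0566 (log2, SE, adjusted p = 8.03e-05) and 0.38 ± 0.0566 (log2, SE, adjusted p = 1.26e-05). Cdc6 (1417019_a_at) read 676.3, 662.4 and 658.6 at 12 h, 563.0, 535.9 and 530.7 at 24 h, and 511.2, 555.2 and 536.1 at 48 h without doxycycline. With doxycycline it read 659.0, 684.6 and 636.2, then 551.8, 562.7 and 496.7, then 504.6, 520.9 and 568.7. Its step came between 12 h and 24 h, where Cdc6 fell by 0.28 ± 0.0693 (log2, SE, adjusted p = 0.0262) uninduced and 0.28 ± 0.0693 (log2, SE, adjusted p = 0.00851) induced. It was the one member called among uninduced arrays over those hours, where 4.02% of all genes were, and that call was lost without any uninduced 12 h replicate or without uninduced 24 h replicate 1 or 2 (adjusted p up to 0.0908), while 2 members were called without uninduced 24 h replicate 3. Over the whole span it fell by 0.30 ± 0.0693 (log2, SE) in each course (adjusted p = 0.00169 and 0.00140).

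Pcna (1417947_at) read 5875, 6271 and 6528 at 12 h, 5677, 5637 and 6349 at 24 h, and 5277, 5696 and 5256 at 48 h without doxycycline. With it Pcna read 6137, 5886 and 6491, then 5538, 5291 and 6354, then 4871, 5207 and 4845. The 48 h arrays were below all 12 h arrays in both courses. Pcna fell by 0.20 ± 0.0676 (log2, SE, adjusted p = 0.0253) uninduced and 0.31 ± 0.0676 (log2, SE, adjusted p = 7.86e-04) induced, and the former call was lost without uninduced 12 h replicate 2 or 3 or uninduced 48 h replicate 1 or 3 (adjusted p up to 0.108). Of the smaller uninduced calls, Rrm2 fell by 0.16 ± 0.0514 (log2, SE, adjusted p = 0.0231) and Gins2 by 0.20 ± 0.0691 (log2, SE, adjusted p = 0.0321). Each was lost without any of 4 arrays, for Rrm2 uninduced 12 h replicates 2 and 3 and 48 h replicates 2 and 3 (adjusted p up to 0.125), for Gins2 uninduced replicates 1 and 3 of both times (adjusted p up to 0.150).

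Mcm7 and Cenpe were the members outside the cyclins that rose in this course. Mcm7, another helicase subunit (1438320_s_at), read 5318, 5260 and 5166 at 12 h, 5713, 5710 and 5239 at 24 h, and 5854, 5891 and 5752 at 48 h without doxycycline. Induced arrays read 5755, 5645 and 5696, then 5801, 5905 and 5658, then 5368, 5548 and 5558. The uninduced change was 0.15 ± 0.0466 (SE, adjusted p = 0.0150), lost without uninduced 12 h replicate 3 or 48 h replicate 2 (adjusted p up to 0.0543), and the induced change was -0.05 ± 0.0466 (SE). Cenpe, a kinetochore motor (1439040_at), read 259.1, 301.9 and 277.8 at 12 h, 233.5, 253.4 and 230.0 at 24 h, and 345.4, 381.7 and 339.9 at 48 h uninduced. On induced arrays it read 327.7, 326.0 and 315.5, then 165.3, 263.6 and 281.5, then 373.6, 342.8 and 340.4. On this probe set Cenpe was lowest at 24 h and rose from then to 48 h by 0.52 ± 0.119 (log2, SE, adjusted p = 0.00269) uninduced and 0.54 ± 0.119 (log2, SE, adjusted p = 0.00151) induced. Its other probe set, 1435005_at, changed by 0.21 (adjusted p = 0.121) and 0.09 (adjusted p = 0.558) and was not lowest at 24 h in the induced course, where it read 257.3, 284.7 and 325.4, then 292.7, 317.5 and 268.0, then 356.9, 298.5 and 288.9. Its call over the full uninduced course, 0.32 ± 0.119 (SE, adjusted p = 0.0448), was lost without any 1 of 11 of the 18 arrays (adjusted p up to 0.153), uninduced 12 h replicate 2, uninduced 24 h replicates 2 and 3, all induced 24 h replicates and induced 48 h replicate 1 being the exceptions.

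In the induced course from 12 h to 48 h, 9 of 17 S phase genes fell and 1 rose (Ccne2), and 3 of 18 G2 and M phase genes fell and 1 rose. The medians were -0.23 for S phase genes, -0.03 for G2 and M phase genes and 0.02 for all genes. With the D cyclins 16 of 38 members were called, where 41.7% of all genes were, 18.9% lower and 22.8% higher. Of the helicase subunits, Mcm2 fell by 0.45 ± 0.0665 (log2, SE), Mcm3 by 0.25 ± 0.0542, Mcm4 by 0.31 ± 0.0823 and Mcm5 by 0.23 ± 0.0667, whereas Mcm6 (0.05 ± 0.0565 SE) and Mcm7 were not called on the probe sets used. Another probe set of each was called lower, 1438852_x_at of Mcm6 (-0.21, adjusted p = 0.0234) and 1439269_x_at of Mcm7 (-0.19, adjusted p = 0.0202), so the split among the helicase subunits depends on the probe set. With the mean of each gene's probe sets the calls of Mcm3 (adjusted p = 0.770), Mcm4 (0.0816), Mcm5 (0.131) and, below, Bub1 (0.406) were lost, and that of Mcm5 also without induced 48 h replicate 1 (adjusted p = 0.0649). Kif11, the spindle motor, fell by 0.35 ± 0.0872 (log2, SE, adjusted p = 0.00231), the checkpoint kinase Bub1 by 0.25 ± 0.0744 (log2, SE, adjusted p = 0.00883) and Ube2c by 0.24 ± 0.0917 (log2, SE, adjusted p = 0.0418), while the mitotic kinase Plk1 rose by 0.22 ± 0.0738 (log2, SE, adjusted p = 0.0221). Of these 4 calls only that of Kif11 stood without each array in turn: Ube2c was lost without induced 12 h or 48 h replicate 2 or 3 (adjusted p up to 0.258), Plk1 without induced 12 h replicate 2 or 3 or 48 h replicate 1 (up to 0.126), Bub1 without induced 12 h or 48 h replicate 1 (up to 0.0554).

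The uninduced and induced courses share no array, though the spread in both was estimated from 1 fit to all 18 arrays. Of the 7 members that fell uninduced and the 12 that fell induced, 5 were in both lists (71.4% of the first, 41.7% of the second): Ccne1, Cdc6, Cdt1, Pcna and Ung. Ccnd2 and Ccne2 were the 2 that rose in both, out of 4 in each (50% of each). The matching overlap over all genes was not counted, so these shares only describe the members. Among members called in 1 course only, Mcm2 had a called difference between the courses (-0.36, the value given above as the difference of induction effects at 48 h and 12 h), and for the others the difference did not pass. This rests on the probe set used for Mcm2. On 1448777_at Mcm2 was called lower in both courses (-0.24 uninduced, -0.25 induced), with a difference of -0.01.

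**Figure D4:**
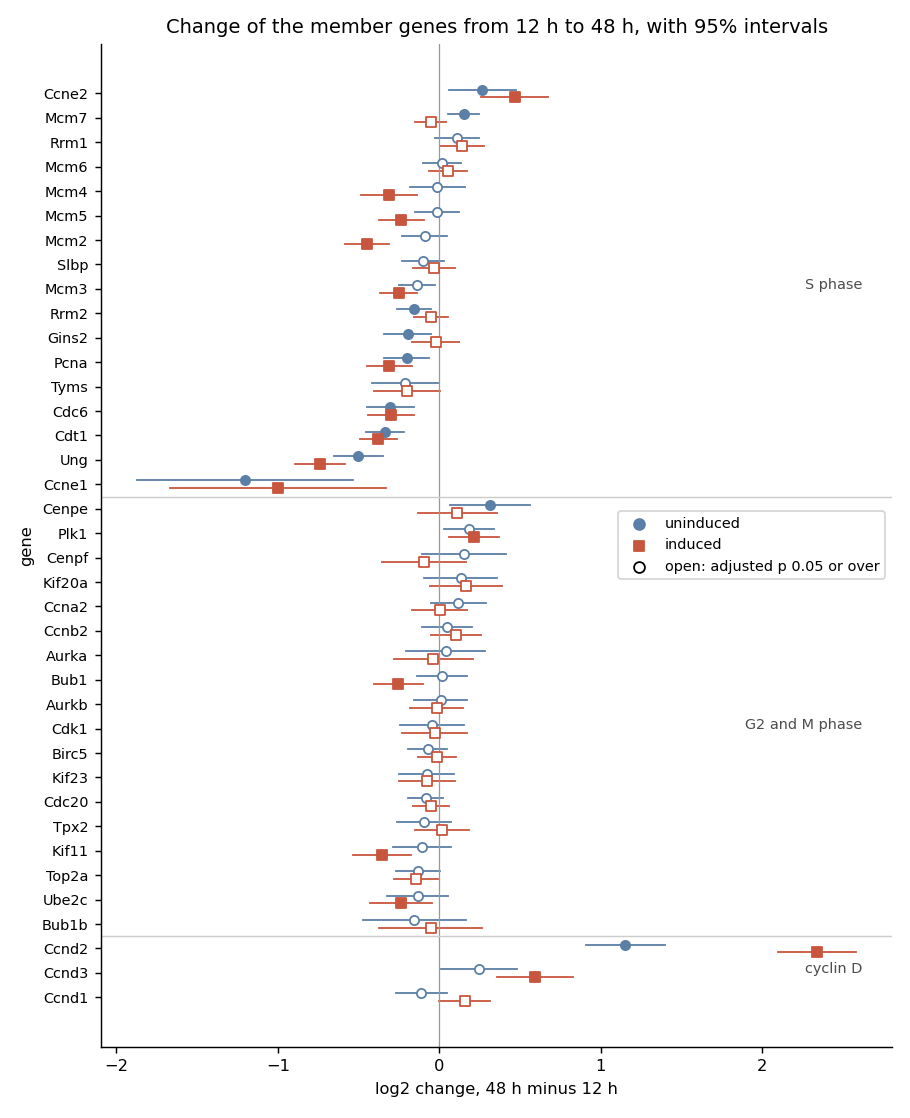
Log2 change from 12 h to 48 h of the 38 members in uninduced (blue circles) and induced (red squares) arrays, with 95% intervals, filled where the adjusted p was under 0.05, grouped as S phase, G2 and M phase and cyclin D genes. Ccnd2 lies far to the right at 1.15 and 2.34, the S phase genes trail to the left down to Ung and Ccne1, and most G2 and M phase genes straddle 0.

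Within the courses the changes were unevenly timed. From 24 h to 48 h uninduced, 10 of 38 members were called (24.5% of all genes): Ccnd2, Ccnd3, Ccne2, Cenpe and Cenpf rose, and Tyms, Cdt1, Ung, Ccne1 and Cdc20 fell. Without uninduced 24 h replicate 1 that count was 5. Of the 10 calls those of Cdt1, Ung, Ccnd2 and Cenpe stood without each array in turn. In the induced course over those hours 12 were called (25.8% of all genes). Ccnd2, Ccnd3, Ccne2 and Cenpe rose, and Mcm2, Mcm3, Mcm5, Mcm6, Pcna, Ung, Ccne1 and Cdc20 fell. The calls of Mcm3, Mcm5, Mcm6, Pcna and Ccne1 were each lost without at least 1 array (adjusted p up to 0.199, for Pcna without induced 48 h replicate 1 or 3 or 24 h replicate 3). From 12 h to 24 h induced, 8 were called (13.9% of all genes), and here 3 mitotic genes rose, Plk1 by 0.35 ± 0.0738 (log2, SE, adjusted p = 0.00270), Kif20a by 0.41 ± 0.109 (log2, SE, adjusted p = 0.0154) and Cdc20 by 0.18 ± 0.0528 (log2, SE, adjusted p = 0.0296), along with Mcm6 and Ccnd2, while Cdc6, Cdt1 and Cenpe fell. Second probe sets were not called for Cenpe (0.02 on 1435005_at, adjusted p = 0.933), Cdt1 (-0.10 on 1424144_at, adjusted p = 0.384) or Mcm6 (-0.08 on 1438852_x_at, adjusted p = 0.538). Cdc20 was called on 2 of 3 probe sets and Ccnd2 on 4 of 7. Of the 8 calls those of Plk1 and Cdc6 stood without each array in turn. The count was 5 without induced 24 h replicate 1 and 4 without replicate 2. Kif20a lost its call without induced 12 h replicate 3 or 24 h replicate 1 or 2 (adjusted p up to 0.0965), and Cdc20 without induced replicate 2 or 3 of either time (up to 0.151). Cdc20 (1439377_x_at) was highest at 24 h: on induced arrays it read 4837, 4379 and 4752 at 12 h, 5139, 5184 and 5456 at 24 h, and 4292, 4758 and 4441 at 48 h. It fell from 24 h to 48 h by 0.23 ± 0.0528 (log2, SE, adjusted p = 0.00275) there.

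Among 37 regulators of the cycle (cyclin-dependent kinases and their inhibitors, E2F and retinoblastoma family members and related factors), the genes called with induction were the inhibitors Cdkn1a, Cdkn1c and Cdkn2a. The inhibitors Cdkn1b, Cdkn2b, Cdkn2c and Cdkn2d were not called at any time, with changes from -0.26 (Cdkn2b at 12 h) to 0.22 (Cdkn1b at 12 h). Cdkn1a, the inhibitor p21, read 408.7, 410.6 and 399.2 in uninduced and 719.8, 829.3 and 837.4 in induced arrays at 48 h. At 12 h it read 394.3, 475.1 and 443.7 uninduced and 510.4, 433.3 and 391.2 induced, and at 24 h 582.7, 503.7 and 639.9 uninduced and 579.1, 641.2 and 606.9 induced. The groups overlapped until 48 h, when Cdkn1a rose by 0.91 ± 0.0968 (log2, SE, 1.89-fold, adjusted p = 5.40e-07). Cdkn1c, the inhibitor p57, differed already at 12 h, with 277.8, 285.5 and 220.1 uninduced and 560.5, 494.2 and 466.5 induced. At 24 h it read 235.8, 298.1 and 287.3 uninduced and 363.0, 376.3 and 384.6 induced, and at 48 h 243.3, 247.4 and 223.3 uninduced and 606.3, 387.6 and 487.9 induced. Induced arrays were above uninduced ones at each time. Cdkn1c rose with induction by 0.88 ± 0.122 (log2, SE, adjusted p = 1.70e-04) at 12 h and 0.94 ± 0.122 (log2, SE, adjusted p = 8.11e-06) at 48 h, and at 24 h the change was 0.42 (adjusted p = 0.0586). Cdkn2a, the Ink4a and Arf locus, read 71.28, 75.81 and 63.95 in uninduced and 119.4, 118.6 and 107.1 in induced arrays at 48 h and rose by 0.52 ± 0.125 (log2, SE, adjusted p = 0.00609). In all, 1 regulator rose at 12 h, none was called at 24 h (3 at an unadjusted p under 0.05), and 3 rose and none fell at 48 h, with a median over the list of 0.05. Shares called over all genes were 1.08% at 12 h, 3.91% at 24 h and 12.4% at 48 h, where 6.85% were higher.

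From 12 h to 48 h, 7 of the 37 regulators rose and 8 fell without doxycycline, and 6 rose and 10 fell with it, where 33.6% and 41.7% of all genes were called. Mybl2, the B-Myb factor that works with MuvB on G2 genes, read 913.3, 914.5 and 896.5 uninduced and 818.3, 730.3 and 771.8 induced at 12 h, against 329.7, 312.1 and 316.0 uninduced and 254.3, 278.8 and 270.3 induced at 48 h. No 12 h array overlapped a 48 h array, and Mybl2 fell by 1.42 ± 0.0885 (log2, SE, adjusted p = 5.07e-11) in the uninduced course. E2f8, a repressor of the E2F family, fell by 0.87 ± 0.125 (log2, SE, adjusted p = 7.34e-06) induced. Cdkn2a fell by 1.04 ± 0.125 (log2, SE, adjusted p = 1.02e-06) uninduced and 0.69 ± 0.125 (log2, SE, adjusted p = 1.10e-04) induced. Cdkn1b, the inhibitor p27, rose by 0.58 ± 0.107 (log2, SE, adjusted p = 1.99e-04) uninduced, and E2f3 rose by 0.57 ± 0.0786 (log2, SE, adjusted p = 4.29e-06) induced.

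**Figure D5:**
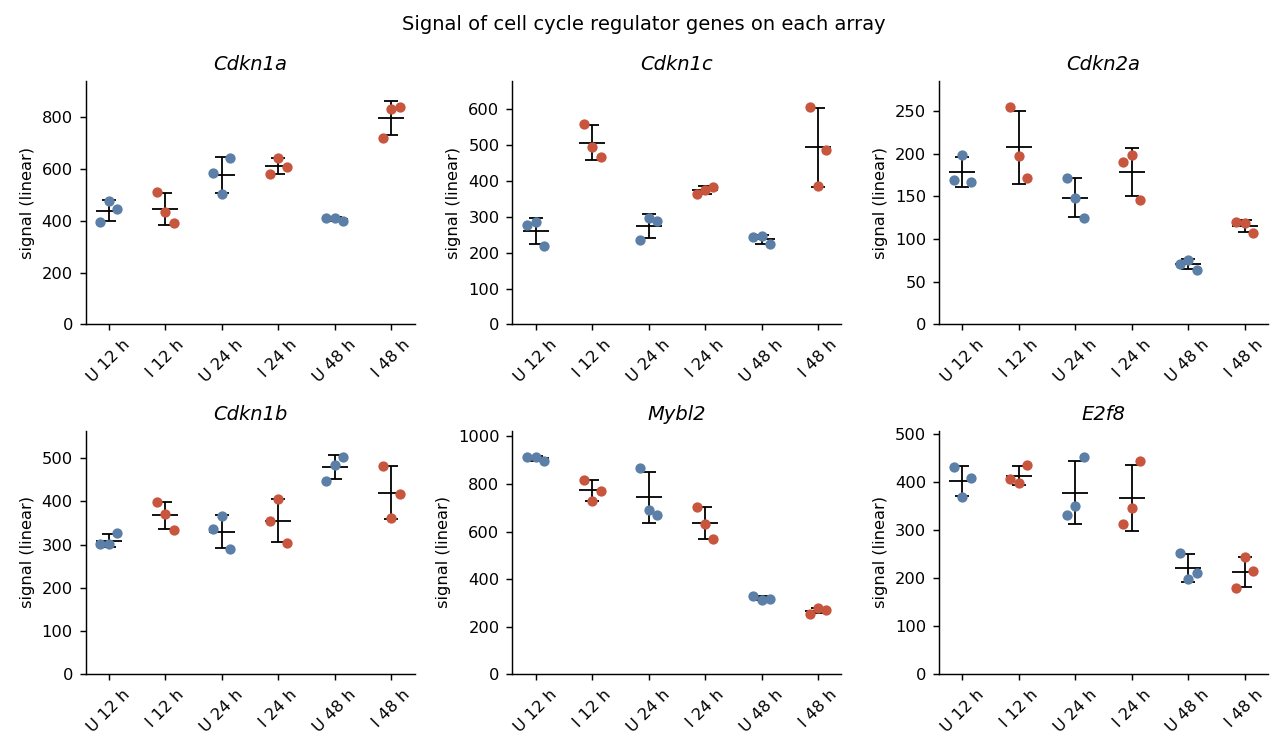
Linear signal of 6 cell cycle regulators on each array (points; U uninduced, blue; I induced, red; hours of collection), with group mean and SD in black and axes from 0. Cdkn1a is at 720 to 837 on induced arrays at 48 h and 399 to 411 on uninduced ones, Cdkn1c is higher on induced arrays at all times, and Mybl2 and E2f8 are lowest at 48 h.

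Of 42 other replication genes 40 were tested. Without doxycycline none rose and 15 fell from 12 h to 48 h, among them the clamp loader subunit Rfc5 (-0.67), the primase subunit Prim2 (-0.57) and the polymerase subunit Pola1 (-0.50), with a median of -0.15, where 15.0% of all genes were lower. With doxycycline 2 rose, Rfc3 (0.45) and the ligase Lig1 (0.37), and 17 fell, among them Pola1 (-0.85), Rfc5 (-0.79) and the helicase Hells (-0.78), with a median of -0.19, where 18.9% of all genes were lower. Induction at 48 h was followed by 1 rise, of Prim2 (0.26, adjusted p = 0.0223), and 4 falls: the origin kinase Cdc7 (-0.34, adjusted p = 0.00990), its activator Dbf4 (-0.30, adjusted p = 0.0241), Pola2 (-0.35, adjusted p = 0.0159) and Pola1 (-0.28, adjusted p = 0.0367). These 5 of 40 are near the 12.4% of all genes called there. Each of these 5 calls was lost without some arrays: Prim2 without uninduced 48 h replicate 2 or 3 or induced replicate 3 (adjusted p up to 0.0905), Cdc7 (up to 0.0613) and Pola2 (up to 0.114) without uninduced replicate 3 or induced replicate 1, Dbf4 without uninduced replicate 1 or 3 or induced replicate 1 (up to 0.140), and Pola1 without any 48 h array (up to 0.152). At 12 h and 24 h none was called, with 4 and 1 at an unadjusted p under 0.05.

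Of 46 other mitotic genes 44 were tested. From 12 h to 48 h, 6 rose and 11 fell uninduced, with a median of -0.07, and 4 rose and 14 fell induced, with a median of -0.10, where 33.6% and 41.7% of all genes were called. Ect2, which directs cytokinesis, fell by 0.61 uninduced and 0.92 induced (log2), and the condensin subunit Ncapd2 rose by 0.47 and 0.61. Induction was followed by 2 rises at 24 h, of Ncapg (0.42, adjusted p = 0.0141) and the phosphatase Cdc25c (0.32, adjusted p = 0.0381), and by 1 fall at 48 h, of the spindle protein Nusap1 (-0.30, adjusted p = 0.0423). The calls of Ncapg (adjusted p up to 0.0820, without uninduced 24 h replicate 1 or induced replicate 2 or 3), Cdc25c (up to 0.174, without any 24 h array but uninduced replicate 3) and Nusap1 (up to 0.150, without any of 9 arrays, among them all 48 h arrays but induced replicate 2) were lost, and those of Ncapd2 were lost with the mean of its probe sets (adjusted p = 0.135 uninduced and 0.113 induced). At 12 h none was called, with 4 at an unadjusted p under 0.05.

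Markers of other cell types moved in the same comparisons. The summed signal of 12 fibroblast markers was 949 to 1140 on uninduced and 1432 to 1656 on induced arrays at 48 h, and 1205 to 1310 and 1357 to 1568 at 12 h, and 4 of the 12 (Fbln2, Col1a2, Pdgfrb and Mmp2) rose with induction at 48 h. The other 8 did not pass, among them Dcn (-0.40, adjusted p = 0.0573) and Lum (-0.17, adjusted p = 0.415), whose induced arrays all lay below the uninduced ones. The summed signal of 9 mesoderm markers, Msgn1 itself among them, was 5024 to 6094 uninduced and 6711 to 8103 induced at 48 h. At 12 h it was 589.4 to 695.1 uninduced and 1422 to 1481 induced. Of the 9 mesoderm markers 8 were tested, and 3, 8 and 6 rose with induction at 12, 24 and 48 h. Of 9 pluripotency markers 1 rose and 7 fell with induction at 48 h. Over all genes 1.08%, 3.91% and 12.4% were called with induction at 12, 24 and 48 h. At 48 h 6.85% were higher and 5.56% lower. Meox1 was below the filter in all groups and the fibroblast gene Lum in the induced group at 48 h. Tbx6 was below it in the uninduced groups at 12 h and 24 h, and Msgn1 in the uninduced groups at 24 h and 48 h. Changes of Tbx6 and Msgn1 with induction at those times are thus measured from dim values. The part of these shifts in the changes of Ccnd2, Ccnd3, Ccne2, Rrm2, Mcm2 and the inhibitors was not tested.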

How the data were processed

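RNA of 18 samples was read on 1-colour Affymetrix arrays. The deposited intensity values were made with GCOS, per the submitters' processing notes; the sources used here give neither algorithm nor scaling target. Of 45101 probe sets, 64 controls were dropped and 34945 had 1 gene symbol in the platform annotation, 34741 of them updated through Entrez ID. Probe sets whose group mean reached the 40th percentile of all values (signal 13.2) in at least 1 group were kept, the brightest per gene. Limma 3.58.1 in R 4.3.3 was fitted to log2(signal + 32) with 1 mean per group, 12 contrasts, 12 residual degrees of freedom and an intensity trend, 2-sided, with Benjamini-Hochberg adjustment over 14282 genes. The script was tested on simulated data. The number of arrays limits the precision. Members and lists were chosen with earlier results of these data known. Values in every array are given for the D cyclins, Mcm2, Pcna, Cdc6, Cdk1 and Top2a, fixed by name whatever their values. They are also given for called members with the largest rises and falls with induction at 48 h or over the uninduced course. Those called members were thus picked on these same data. Regulators the results turn on are given on every array too. Of the other lists up to 3 called genes with the largest rises and falls per comparison are named. Pola1 at 48 h, Cdc20, Cdkn1b, Cdkn2b, E2f3, Mmp2, Dcn and Lum, and the second probe sets given, were named after their values were seen. Same-numbered arrays had correlated deviations from their group means at 24 h (0.20, 0.14 and 0.44). At 12 h (0.010, 0.072 and -0.067) and 48 h (-0.13, -0.066 and 0.083) they did not. Differently numbered arrays at 24 h gave -0.32 to 0.20, a range that holds the 0.14. The numbers may therefore pair arrays at 24 h, but this is not settled. The main fit paired no arrays at any time, and the replicate block was fitted only as an alternative. Alternatives changed the offset, normalization, filter, probe set rule, trend, arrays fitted, replicate block and each array left out.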

Additional observations from a re-analysis of the deposited data

Results flagged for a closer look

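For 3 genes the effect of induction (induced minus uninduced, log2) differed between times by limma's test of the difference, adjusted over all genes. For Ccnd2 the effect at 48 h was above that at 24 h by 0.738 (adjusted p = 0.0133) and above that at 12 h by 1.19 (adjusted p = 7.80e-05). Of the 7 probe sets of Ccnd2, 2 were called for the first difference and 6 for the second. For Cdkn1a the effect at 48 h was above that at 24 h by 0.831 (adjusted p = 0.00100) and above that at 12 h by 0.896 (adjusted p = 0.000225). For Mcm2 the difference between 48 h and 12 h was -0.357 (adjusted p = 0.0250) on the probe set used and -0.01 (adjusted p = 0.979) on 1448777_at. All 3 induced arrays lay beyond all 3 uninduced arrays at 48 h for each of the 3 genes, and the groups overlapped at 12 h for Mcm2 and Cdkn1a. No test for single arrays that stand apart was run in these groups of 3.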

How the results depend on the processing

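Of 66 calls of members, 34 held without each array in turn and 37 under every other setting, 30 under both, and none changed direction. For 46 of the calls the gene had several kept probe sets. In 14 of these every probe set was called the same way, and in none was a probe set called the other way. With induction at 24 h, where no member was called, 1 (Mcm6) was called with a filter at the 60th percentile, 1 (Ccnd2) with each gene's probe sets averaged and 3 with the replicate block within time. The single uninduced call from 12 h to 24 h became 0 when only the arrays compared were fitted. The 11 uninduced calls from 12 h to 48 h became 7 without the intensity trend, and the 2 differences of induction effect between 48 h and 12 h became 1 with the mean of probe sets and 1 without the trend. Leaving out 1 array gave 0 to 2 members for induction at 24 h and for 12 h to 24 h uninduced, 5 to 11 for 24 h to 48 h uninduced, 6 to 14 for 12 h to 48 h uninduced, 4 to 9 for 12 h to 24 h induced, 1 to 2 for the difference of effect between 48 h and 24 h and 1 to 3 between 48 h and 12 h. With induction at 48 h the range was 4 to 7. The replicate block over all times called 5 members with induction at 48 h, as without it, and changed no count of calls by more than 1.5 times; within time it called 7. The causes were not tested. The number of arrays, 3 a group, limits which differences could be called.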
